A study of Mus musculus with 9 samples.

Results

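The genes described are 43 genes of T cells, natural killer (NK) cells and innate lymphoid cells, measured in bulk mouse colon. They were chosen from a fixed list by gene symbol, and every probe whose platform annotation carries such a symbol was taken, whatever its values. The rule found 44 probes for 40 of the 43 genes, among 26423 probes in all and 17742 genes named by them. No probe carried the symbols Lck, Thy1 or Ctla4, so these 3 genes are not analysed here. Cd27, Cd8a and Cd69 had more than 1 probe, and each gene is given by its brightest probe on average.

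Colon RNA of female BALB/c mice, an inbred strain, was labelled with Cy5 and hybridised to 1-colour microarrays in 3 groups of 3 arrays. The Vanillin group had the AOM/DSS course of the Sham group together with vanillin, the main flavour compound of vanilla, at 100 mg/kg by mouth for 91 days. In the Sham group, AOM (azoxymethane, a carcinogen) was injected at 12.5 mg/kg on day 1, and DSS (dextran sodium sulfate, which injures the gut lining) was given at 2.5% in the water for 5 days from day 8. Plain water followed for 16 days, and the DSS treatment was repeated in 3 further cycles. The Mock group was untreated. The labels do not tie arrays to mice, so p-values measure the spread between arrays, which may be only technical. The tissue was not sorted, so fewer cells of a type and less RNA per cell cannot be told apart. Values are the authors' normalised probe intensities in arbitrary units, and levels of different probes are not compared. Changes are differences in mean log2(intensity + 16), a scale that shrinks the change of dim probes. A gene was called where the adjusted p from limma, a linear model fitted to every probe, was under 0.05. All p-values below are adjusted over all 26423 probes (Benjamini-Hochberg).

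The arrays carried markers of intestinal epithelium and also those of skin-type epithelium, fat and skeletal muscle. The sums of these other tissues' markers were much higher on the Vanillin and Mock arrays than on the Sham arrays. The summed intensity of 15 squamous epithelium markers was 363072 to 415425 in Vanillin, 48170 to 50147 in Sham and 619234 to 627871 in Mock. Krt10, Krt13 and Lor read near the highest intensity of any probe, 65510, on some Vanillin or Mock arrays, so these sums may be cut off. Krt14 read 11506 on Vanillin 3 against 64969 and 63608 on Vanillin 1 and 2. The summed intensity of 12 adipocyte markers was 112587 to 116010 in Vanillin, 25895 to 26887 in Sham and 133101 to 134683 in Mock. That of 7 skeletal muscle markers was 49135 to 55619, 2730 to 2847 and 129071 to 138093 in the same order of groups. Summed over 10 genes shared by white blood cells, it was 57173 to 60779 in Vanillin, 44794 to 46428 in Sham and 23164 to 23582 in Mock. The 13 intestinal epithelium markers summed to 298908 to 305314 in Vanillin, 317259 to 328172 in Sham and 335568 to 346589 in Mock. Single markers of the 13 moved both ways, from -2.98 to 3.13 in Sham minus Mock. There 4 rose and 4 fell, where 36.5% of all probes rose and 23.2% fell. In Vanillin minus Sham 0 rose and 6 fell, where 15.7% of all probes rose and 32.2% fell. Among the markers of all these lists, none was at 0 on all arrays of a group except the intestinal keratin Krt8 in Vanillin and Sham, whose Mock values also lay near 0. The sums of the squamous, fat and muscle markers were thus lowest in Sham and highest in Mock, though not every marker followed its sum. Of the 12 adipocyte markers, 10 fell and 2 rose in Sham minus Mock, Lpl by 0.18 and the near-background Pparg by 0.19. The 7 muscle markers all fell there, and in Vanillin minus Sham 6 rose and 1, Actn3, fell by 0.35. The part of these tissue markers, and of the white blood cell markers, in the results below was not tested.

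**Figure D1:**
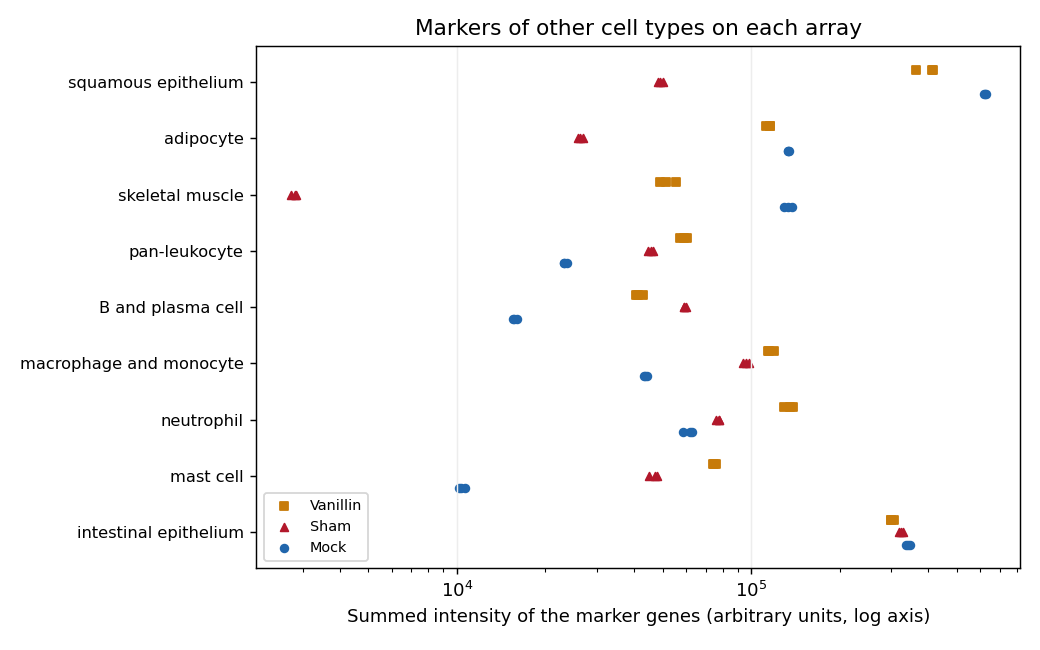
Summed probe intensity (log axis, arbitrary units) of marker genes of other cell types, 1 point per array (squares Vanillin, triangles Sham, circles Mock). The sums of squamous, adipocyte and skeletal muscle markers were lowest in the 3 Sham arrays, while that of white blood cell markers was lowest in the 3 Mock arrays.

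As background, T cells recognise antigen through a receptor that signals through the CD3 chains and CD247, with CD4 or CD8 as co-receptor and the kinase ZAP70 and the adaptor LAT downstream. Co-stimulatory receptors such as CD28 and ICOS strengthen that signal, and inhibitory receptors such as PD-1 restrain it. Cytotoxic T cells and NK cells kill target cells with perforin and granzymes, and the intestinal epithelium normally holds many such lymphocytes between its cells. Innate lymphoid cells lack the antigen receptor but share transcription factors and cytokine receptors with T cells.

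Promoter sequences are shown for 6 genes whose changes ran apart or together most clearly, chosen after their values were seen. The first 3 belong to CD3 genes of the same receptor complex, of which Cd3g fell while Cd3d and Cd3e rose in Sham minus Mock. Gzmb and Gzmc are neighbouring granzyme genes that moved together, and Gata3 had the largest change of the 40 genes with vanillin. Each window runs from 250 bases before to 50 bases after the annotated start (RefSeq, GRCm38.p6), 5′ to 3′ on the gene's strand. In the order shown they lie at chr9:45009562-45009861, minus strand, chr9:44981536-44981835, plus strand, chr9:44980382-44980681, minus strand, chr14:56262285-56262584, minus strand, chr14:56234608-56234907, minus strand, and chr2:9878551-9878850, minus strand. Capitals mark matches on either strand to 5 short motifs bound by families of transcription factors active in lymphocytes. The AP-1 family was searched for with the letters TGANTCA, in which N is any base. The letters TGTGGT stood for the Runx family, and those of the GATA family, to which Gata3 itself belongs, were AGATAA. For the Ets family the search used AGGAAG, and for the T-box family of Tbx21 and Eomes it used GGTGTG.
Cd3e: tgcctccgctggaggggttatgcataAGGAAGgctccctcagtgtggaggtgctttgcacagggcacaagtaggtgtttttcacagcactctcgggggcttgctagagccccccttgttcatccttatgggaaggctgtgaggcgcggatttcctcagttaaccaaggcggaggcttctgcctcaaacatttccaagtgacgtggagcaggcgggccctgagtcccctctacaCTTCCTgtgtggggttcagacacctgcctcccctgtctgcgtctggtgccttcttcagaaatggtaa
Cd3d: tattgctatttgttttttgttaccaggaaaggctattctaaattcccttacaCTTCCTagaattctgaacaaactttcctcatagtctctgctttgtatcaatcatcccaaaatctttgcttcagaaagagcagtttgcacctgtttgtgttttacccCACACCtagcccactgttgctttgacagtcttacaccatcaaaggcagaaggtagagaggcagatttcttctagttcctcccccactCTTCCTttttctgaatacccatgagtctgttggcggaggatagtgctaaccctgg
Cd3g: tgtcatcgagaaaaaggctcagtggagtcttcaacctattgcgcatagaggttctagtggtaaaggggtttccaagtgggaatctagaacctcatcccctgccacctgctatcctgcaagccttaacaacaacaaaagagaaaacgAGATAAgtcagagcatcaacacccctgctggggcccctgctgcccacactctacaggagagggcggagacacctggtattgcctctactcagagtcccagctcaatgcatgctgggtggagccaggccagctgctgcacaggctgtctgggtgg
Gzmb: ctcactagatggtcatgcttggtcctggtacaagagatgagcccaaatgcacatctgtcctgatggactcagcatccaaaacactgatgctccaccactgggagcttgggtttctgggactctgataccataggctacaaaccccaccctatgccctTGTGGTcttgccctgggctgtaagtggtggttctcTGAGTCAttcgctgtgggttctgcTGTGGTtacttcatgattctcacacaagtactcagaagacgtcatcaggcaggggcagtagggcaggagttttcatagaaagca
Gzmc: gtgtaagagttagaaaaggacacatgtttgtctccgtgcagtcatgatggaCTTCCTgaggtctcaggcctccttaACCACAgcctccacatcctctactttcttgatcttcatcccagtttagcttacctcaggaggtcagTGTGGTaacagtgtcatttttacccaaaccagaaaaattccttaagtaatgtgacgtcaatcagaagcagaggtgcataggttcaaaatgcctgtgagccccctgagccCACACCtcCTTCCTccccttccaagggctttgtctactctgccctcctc
Gata3: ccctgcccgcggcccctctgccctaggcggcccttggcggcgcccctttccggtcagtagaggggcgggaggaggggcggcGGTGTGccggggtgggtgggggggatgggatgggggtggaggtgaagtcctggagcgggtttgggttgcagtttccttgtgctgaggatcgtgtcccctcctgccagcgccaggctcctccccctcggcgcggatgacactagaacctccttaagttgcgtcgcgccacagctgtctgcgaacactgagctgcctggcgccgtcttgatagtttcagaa
The motifs are held by 7.81% (AP-1), 16.8% (Runx), 11.2% (GATA), 35.4% (Ets) and 19.0% (T-box) of the 32851 promoter windows of the same length in the table, so a match describes the letters and no more. Ets letters occur at 2 places each in the windows of Cd3e, Cd3d and Gzmc, and T-box letters at 1 place each in those of Cd3d, Gzmc and Gata3. Cd3g has a single GATA match. Gzmb has 2 Runx matches and 1 AP-1 match, and Gzmc has 2 Runx matches. No 2 matches overlap. In a global alignment, the Gzmb and Gzmc windows share 158 of 258 aligned bases (61.2%). The annotated starts of Cd3d and Cd3g lie 1355 bases apart on opposite strands, pointing away from each other.

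After the AOM/DSS course, most of the measured lymphocyte genes were higher than in untreated colon, and a smaller set was lower. In Sham minus Mock, 23 of the 40 genes rose and 9 fell, where 36.5% of all probes rose and 23.2% fell, and 8 were not called. The share of the 40 genes that fell, 22.5%, was thus close to that of all probes. The median change of the 40 genes was 0.36, against 0.10 over all probes. Granzymes, co-stimulatory receptors and inhibitory receptors gave the increases of at least 1 on the log2 scale, together with Cd3e and Cd69. That size was reached upward by 9 genes (5.9% of all probes) and downward by 2 (7.57% of all probes), Gata3 and Cd247. The lower genes included those of the receptor chains Cd3g and Cd247, perforin, Nkg7 and an NK receptor. Standard errors of the 40 genes ran from 0.042 to 0.25.

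With vanillin, the checkpoint receptor gene Pdcd1, granzymes B and C and interferon gamma were lower than in Sham colon, while Gata3, perforin and some genes of the T cell receptor complex were higher. In Vanillin minus Sham, 10 of the 40 genes rose and 13 fell, where 15.7% of all probes rose and 32.2% fell, and 17 were not called. The median was -0.10, against -0.09 over all probes, and the share of the 40 genes that fell, 32.5%, was close to that of all probes. Of the 13 decreases, 4 reached 0.5 on the log2 scale (8.35% of all probes), those of Pdcd1, Gzmc, Gzmb and Ifng. The 5 increases of that size (7.72% of all probes) were those of Gata3, Prf1, Cd247, Cd3g and Nkg7. Both comparisons use the 3 Sham arrays with opposite sign, so chance deviations of those arrays enter the pair in opposite directions. The values are therefore given side by side for each gene. The counts by role below, of 2 to 7 measured genes each, stand against the shares of all probes. These were 36.5% higher and 23.2% lower in Sham minus Mock, and 15.7% higher and 32.2% lower in Vanillin minus Sham.

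**Figure D2:**
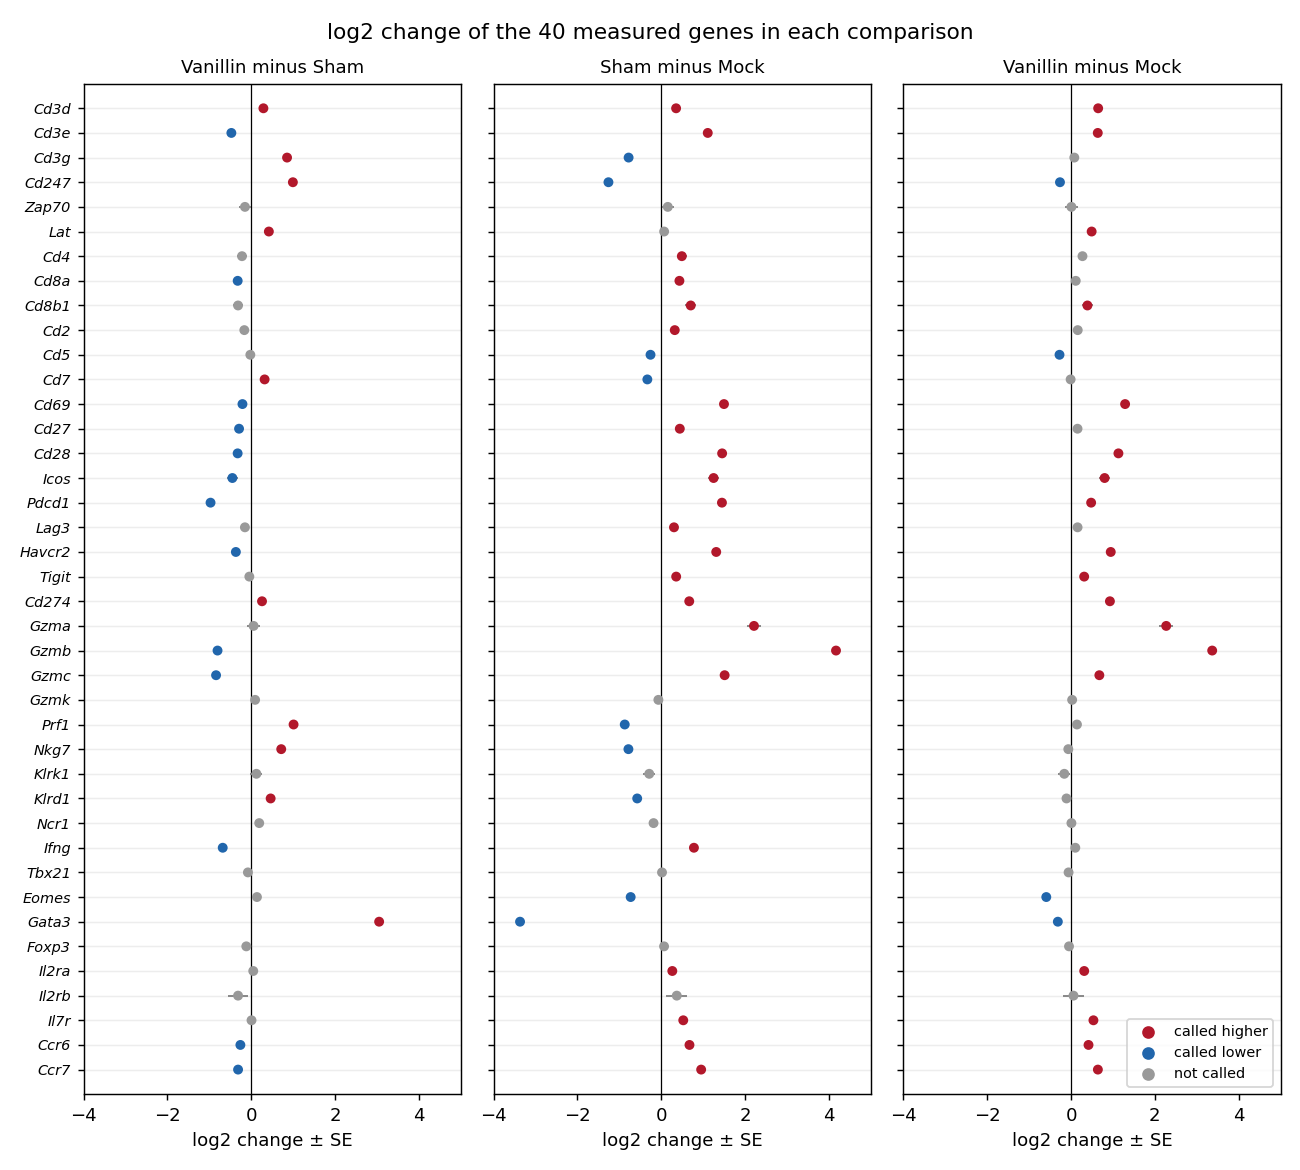
log2 change (points) with its standard error (bars) of the 40 measured genes in the 3 comparisons, coloured by limma's call. Gzmb had the largest increase in Sham minus Mock (4.17), and Gata3 the largest decrease there (-3.37) and the largest increase in Vanillin minus Sham (3.05).

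The genes of the receptor complex did not move together at the RNA level. Cd3d, Cd3e, Cd3g and Cd247 had 1 probe each, and whether these probes also bind other transcripts was not tested. Of 6 measured genes of the complex and its first signalling steps, 2 rose, 2 fell and 2 were not called in Sham minus Mock, and 4 rose, 1 fell and 1 was not called in Vanillin minus Sham. Cd3e, which encodes the CD3 epsilon chain, had intensities of 2358, 2305 and 2339.5 in Vanillin, 3331, 3093 and 3328 in Sham and 1532, 1474 and 1475 in Mock. The 3 groups do not overlap, with Sham highest. It rose by 1.11 (SE 0.048, adjusted p = 5.89e-08) in Sham minus Mock and fell by 0.47 (SE 0.048, adjusted p = 5.61e-05) in Vanillin minus Sham. Cd3d, the delta chain, rose in both comparisons. It stood at 1076, 961 and 889 in Vanillin, 848, 761 and 771 in Sham and 621, 611 and 612 in Mock, with no overlap and Vanillin highest. The changes were 0.36 (SE 0.074, adjusted p = 0.00245) in Sham minus Mock and 0.29 (SE 0.074, adjusted p = 0.0106) in Vanillin minus Sham.

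Cd3g, the gamma chain and head-to-head neighbour of Cd3d, fell in Sham minus Mock, where Cd3d and Cd3e rose, and rose with Cd3d in Vanillin minus Sham. Its probe read 602, 597 and 607 in Vanillin, 324, 332 and 321 in Sham and 596, 544 and 568 in Mock. The Sham arrays are the low ones, well apart from the other groups, and Vanillin lies just above Mock. It fell by 0.78 (SE 0.047, adjusted p = 7.02e-07) in Sham minus Mock and rose by 0.85 (SE 0.047, adjusted p = 1.06e-06) in Vanillin minus Sham, and Vanillin minus Mock was not called (0.08, adjusted p = 0.2). Cd247, the zeta chain that carries most of the receptor's signalling motifs, was also lowest in Sham. Its intensities were 225, 231 and 231 in Vanillin, 115, 109 and 98.8 in Sham and 287, 290.1 and 259 in Mock. The 3 groups do not overlap, with Mock highest. It fell by 1.26 (SE 0.064, adjusted p = 1.97e-07) in Sham minus Mock and rose by 0.99 (SE 0.064, adjusted p = 3.03e-06) in Vanillin minus Sham.

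Downstream of the receptor, Lat, which encodes an adaptor that gathers signalling proteins, averaged 836 ± 91.2 in Vanillin, 619 ± 22.3 in Sham and 588 ± 26.5 in Mock (SD, n = 3 each). All Vanillin arrays lie above all others, and Sham overlaps Mock. It rose by 0.42 (SE 0.078, adjusted p = 0.002) in Vanillin minus Sham and was not called in Sham minus Mock (0.07, adjusted p = 0.452). Zap70, the kinase that binds the phosphorylated receptor, averaged 579.7 ± 51.1, 644 ± 21.5 and 585 ± 132 in the same order of groups. Its groups overlap in every comparison, with changes of 0.16 in Sham minus Mock (adjusted p = 0.376) and -0.15 in Vanillin minus Sham (adjusted p = 0.434). The probes of genes of 1 receptor complex thus had called changes of opposite sign on the same arrays, Cd3e and Cd3d upward and Cd3g and Cd247 downward in Sham minus Mock. Cd3g and Cd247 shared with the summed squamous, fat and muscle markers a low level in Sham, and the part of those tissues in their change was not tested.

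**Figure D3:**
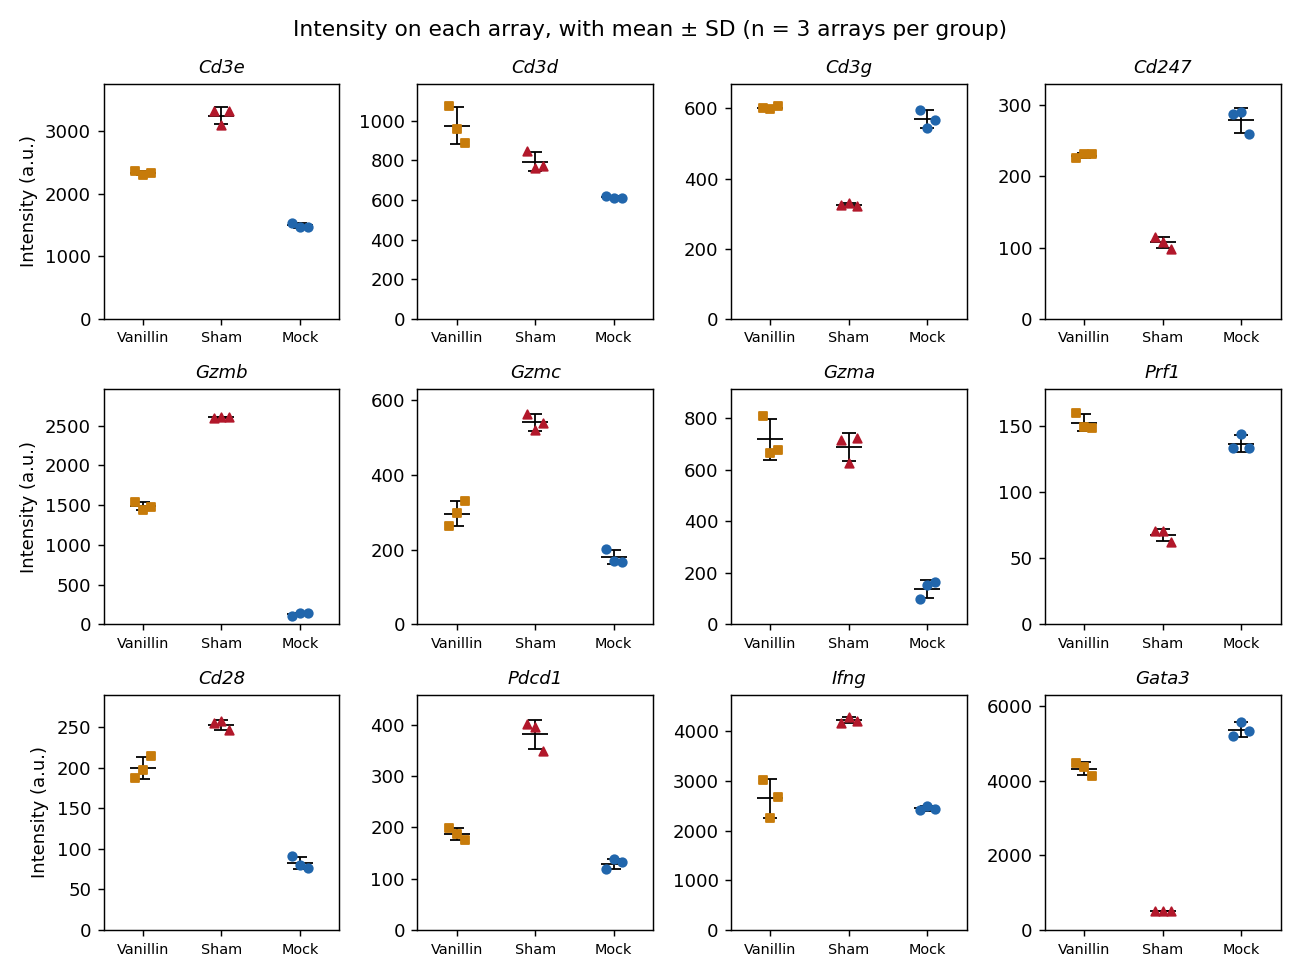
Probe intensity (arbitrary units, axes from 0) of 12 genes on each array, with the mean and SD of 3 arrays as bars, for Vanillin, Sham and Mock. Cd3g, Cd247, Prf1 and Gata3 are lowest in Sham, while Cd3e, Gzmb, Gzmc, Cd28, Pdcd1 and Ifng are highest there.

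Among 7 co-receptors and surface proteins, 5 rose and 2 fell in Sham minus Mock. In Vanillin minus Sham, 1 rose, 2 fell and 4 were not called, shares near the 15.7% higher and 32.2% lower of all probes. Cd4, the co-receptor of helper T cells, had 70.2, 78.2 and 73.4 in Vanillin, 97.6, 85.1 and 84.1 in Sham and 72.1, 59.3 and 46.0 in Mock, a dim probe. The Sham arrays lie above all others, and Vanillin overlaps Mock. Sham minus Mock was 0.49 (SE 0.12, adjusted p = 0.00523), and Vanillin minus Sham was not called at -0.22 (adjusted p = 0.154). Cd8a, the alpha chain of the cytotoxic co-receptor, read 187, 174 and 160.0 in Vanillin, 217, 217 and 229 in Sham and 144, 166 and 167 in Mock. Sham is again above both other groups, which overlap each other. It rose by 0.44 (SE 0.072, adjusted p = 0.000624) in Sham minus Mock and fell by 0.32 (SE 0.072, adjusted p = 0.00543) in Vanillin minus Sham. The dimmer Cd8a probe read 86.0, 98.2 and 109 in Vanillin, 118, 114 and 125 in Sham and 63.3, 61.6 and 58.2 in Mock, with no overlap. By that probe Sham minus Mock was 0.81 and Vanillin minus Sham -0.25 (adjusted p = 0.0251). Vanillin minus Mock was called higher by it (0.56, adjusted p = 0.000265) and not by the brighter probe (0.11, adjusted p = 0.225). Cd8b1, the partner chain, rose by 0.71 (SE 0.13, adjusted p = 0.00121) in Sham minus Mock, and its Vanillin minus Sham change of -0.32 was not called (adjusted p = 0.0747). That change was called in the fit of the 6 Vanillin and Sham arrays alone (adjusted p = 0.0342, and 0.0233 with the replicate number as a block), and without Mock 1 (adjusted p = 0.0203). The 6 arrays alone also called Cd4 lower (adjusted p = 0.0413).

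Cd69, an early activation marker that tissue-resident lymphocytes also keep on their surface, had 689, 624 and 564 in Vanillin, 767, 691 and 716 in Sham and 239, 249 and 249 in Mock. Every Vanillin and Sham array is above every Mock array, with Sham the highest. The Sham mean is 2.95 times the Mock mean (adjusted p = 1.67e-07 in Sham minus Mock), and the log2 change of the dimmer probe of the gene was 0.73. In Vanillin minus Sham the dimmer probe was not called (-0.07, adjusted p = 0.406). The decrease of 0.21 in Vanillin minus Sham (adjusted p = 0.045) was not called with the replicate number as a block (adjusted p = 0.0532), and leaving out any 1 of 7 arrays also ended it (adjusted p of 0.0567 to 0.138 without Mock 1, 2 or 3, Sham 1 or 3, or Vanillin 2 or 3). Cd2, an adhesion receptor, rose by 0.33 (adjusted p = 0.00225) in Sham minus Mock. The 2 decreases there were small: Cd7, a surface protein of T and NK cells, fell by 0.33 (adjusted p = 0.000694), and Cd5, which dampens receptor signalling, fell by 0.25 (adjusted p = 0.0267). The Cd5 call was lost without Mock 2, Mock 3 or Sham 2, at an adjusted p of 0.0505 to 0.0883. In Vanillin minus Sham, Cd7 rose by 0.32 (adjusted p = 0.00139) while Cd2 and Cd5 stood at -0.17 and -0.02, not called. Without Sham 3 or Vanillin 1, Cd2 was called lower there (adjusted p of 0.0182 to 0.0321).

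All 3 co-stimulatory receptors rose in Sham minus Mock and fell in Vanillin minus Sham by their brightest probe, though for Cd27 the fall rested on that probe alone. Cd28, the main co-stimulatory receptor of T cells, had 187, 197 and 214 in Vanillin, 255, 258 and 246 in Sham and 91.0, 80.1 and 76.0 in Mock. The groups do not overlap, and Vanillin lies nearer to Sham than to Mock. It rose by 1.46 (SE 0.07, adjusted p = 1.33e-07) in Sham minus Mock and fell by 0.32 (SE 0.07, adjusted p = 0.00466) in Vanillin minus Sham. Icos, an inducible relative of Cd28, read 241, 209 and 204 in Vanillin, 337, 289 and 286 in Sham and 126, 95.0 and 136 in Mock. Its groups are likewise apart, in the same order. The changes were 1.25 (SE 0.12, adjusted p = 1.89e-05) in Sham minus Mock and -0.45 (SE 0.12, adjusted p = 0.0146) in Vanillin minus Sham. The last of these was not called without Sham 1 (adjusted p = 0.0552) or Vanillin 3 (adjusted p = 0.0529). Cd27, a co-stimulatory receptor of the tumour necrosis factor receptor family, rose by 0.45 (adjusted p = 0.00198) in Sham minus Mock. Its other 2 probes gave 0.27 and 0.22 there, the last not called (adjusted p = 0.0608). It fell by 0.29 (adjusted p = 0.0244) in Vanillin minus Sham, a call lost without Sham 1, Sham 2, Vanillin 2 or Vanillin 3 (adjusted p of 0.0668 to 0.0762). Its other 2 probes were not called in Vanillin minus Sham, at -0.06 (adjusted p = 0.562) and -0.19 (adjusted p = 0.121), nor was the mean over the gene's probes (-0.18, adjusted p = 0.0549).

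The 4 inhibitory receptors and the PD-1 ligand gene Cd274 all rose in Sham minus Mock. In Vanillin minus Sham, 2 of the 5 fell, 1 rose and 2 were not called. Pdcd1, which encodes the checkpoint receptor PD-1, had 198, 187 and 175 in Vanillin, 401, 396 and 348 in Sham and 119, 138 and 132 in Mock. The groups do not overlap, and Vanillin stands closer to Mock. It rose by 1.45 (SE 0.077, adjusted p = 2.56e-07) in Sham minus Mock and fell by 0.97 (SE 0.077, adjusted p = 1.2e-05) in Vanillin minus Sham. Havcr2, which encodes TIM-3, a receptor of T cells that myeloid cells also carry, read 434, 394 and 365 in Vanillin, 549, 513 and 488 in Sham and 184, 211 and 199 in Mock. The order is the same, but here Vanillin is nearer to Sham. Its changes were 1.31 (SE 0.078, adjusted p = 5.6e-07) in Sham minus Mock and -0.37 (SE 0.078, adjusted p = 0.00421) in Vanillin minus Sham. Summed macrophage and monocyte markers, 13 of 15 measured, were 114071 to 119188 in Vanillin, 93613 to 98719 in Sham and 43311 to 44320 in Mock, and their part in the Havcr2 result was not tested.

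Tigit and Lag3, both inhibitory receptors of T and NK cells, rose by 0.36 (adjusted p = 0.000449) and 0.31 (adjusted p = 0.00184) in Sham minus Mock. Neither was called in Vanillin minus Sham, at -0.05 (adjusted p = 0.546) and -0.15 (adjusted p = 0.0684), though Lag3 was called lower with array weights (-0.21, adjusted p = 0.0148). Cd274, the ligand PD-L1 that many cell types carry, was called higher in both comparisons. It averaged 1389 ± 81.8 in Vanillin, 1165 ± 153 in Sham and 722 ± 12.5 in Mock (SD, n = 3 each). The rise was 0.67 (SE 0.088, adjusted p = 0.000141) in Sham minus Mock. The 0.26 of Vanillin minus Sham (adjusted p = 0.039) came from groups that overlap through Sham 3, and it was not called without any 1 of Mock 1, 2 or 3, Sham 1 or 2, or Vanillin 1 or 3 (adjusted p of 0.0514 to 0.125).

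**Figure D4:**
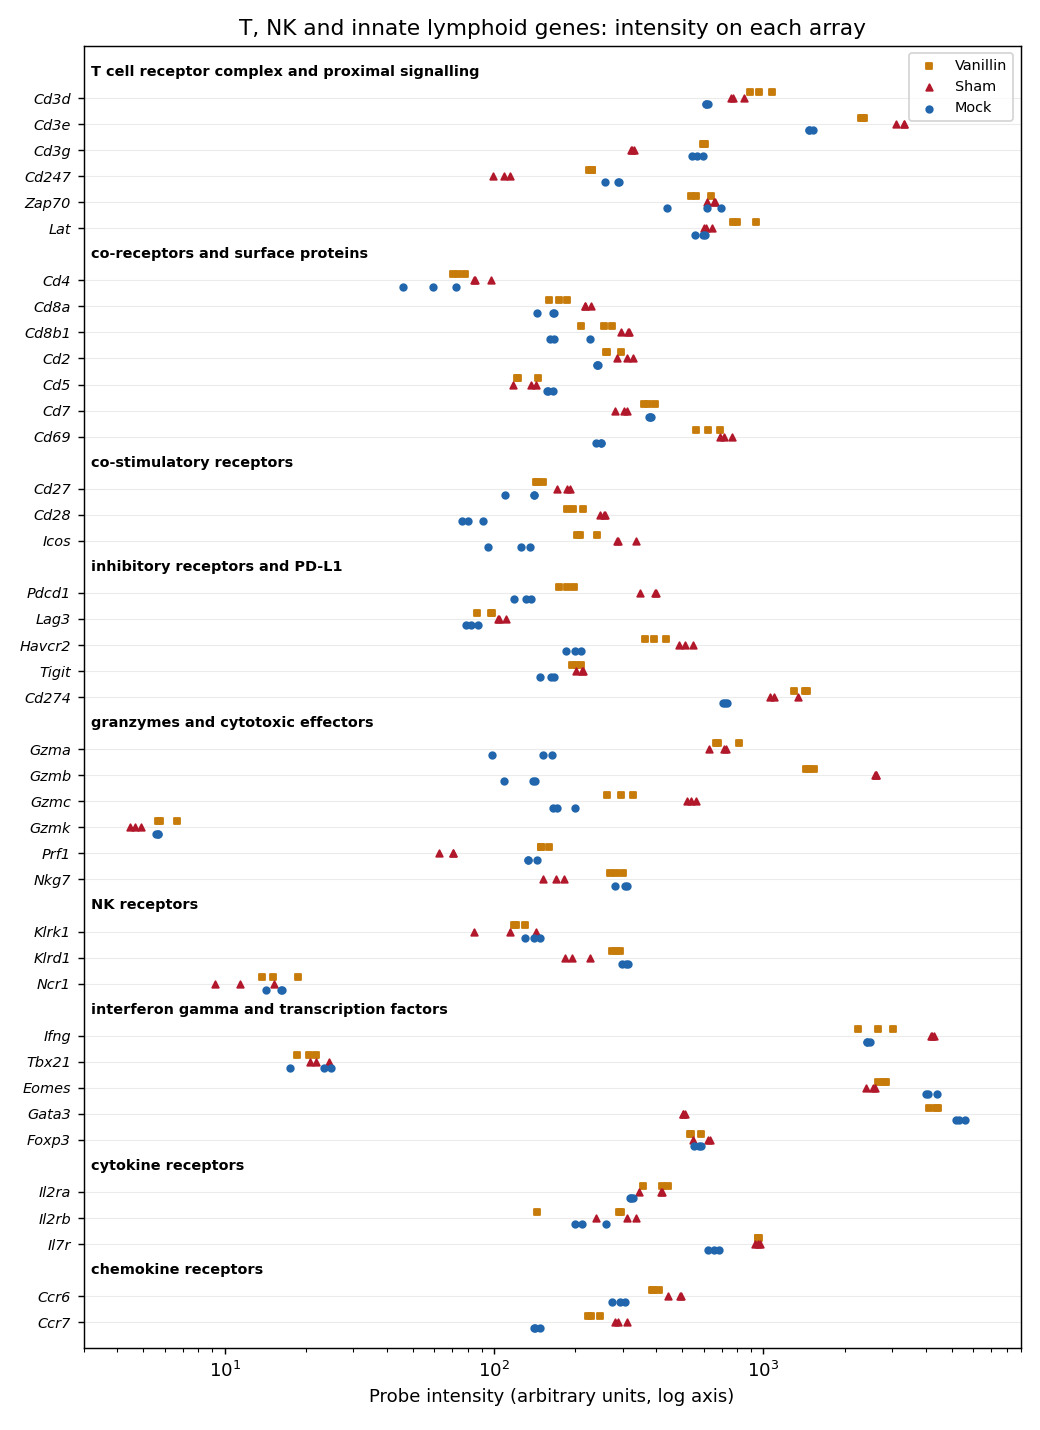
Probe intensity (log axis, arbitrary units) of the 40 measured genes by role, 1 point per array (squares Vanillin, triangles Sham, circles Mock). Gzmb separates Sham (2600 to 2612) from Mock (109 to 142) most widely upward among the 40, and Gata3 most widely downward (503 to 510 in Sham, 5207 to 5590 in Mock).

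In Sham minus Mock, Gzma, Gzmb and Gzmc rose while Prf1 and Nkg7 fell, and in Vanillin minus Sham, Gzmb and Gzmc fell while Prf1 and Nkg7 rose. Of 6 genes, 3 rose, 2 fell and 1 was not called in Sham minus Mock, and 2 rose, 2 fell and 2 were not called in Vanillin minus Sham. Gzmb, the protease granzyme B that triggers death of target cells, had 1541, 1443 and 1477 in Vanillin, 2599.9, 2611 and 2612 in Sham and 109, 142 and 139 in Mock. The groups are far apart, and the Sham mean is 20 times the Mock mean. It rose by 4.17 (SE 0.086, adjusted p = 3.55e-10) in Sham minus Mock, rank 40 among the increases of all probes, and fell by 0.80 (SE 0.086, adjusted p = 8.04e-05) in Vanillin minus Sham. Gzmc, granzyme C of mouse killer cells, read 262, 297 and 329 in Vanillin, 563, 519.8 and 539 in Sham and 201, 171 and 166 in Mock. Its groups are apart in the same order. The changes were 1.52 (SE 0.092, adjusted p = 6.89e-07) in Sham minus Mock and -0.84 (SE 0.092, adjusted p = 9.5e-05) in Vanillin minus Sham. The pair are related genes whose annotated starts lie 27677 bases apart, and since the probe sequences were not used here, cross-hybridisation between granzyme transcripts was not tested. Mast cells also make granzyme B in mice, and the summed intensity of 10 of 12 mast cell markers was 74087 to 75975 in Vanillin, 45057 to 47999 in Sham and 10188 to 10615 in Mock, whose part in the Gzmb result was not tested.

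Gzma, granzyme A, rose in Sham minus Mock and was not called in Vanillin minus Sham. Its arrays had 809, 665 and 678 in Vanillin, 713, 627 and 724 in Sham and 98.6, 152 and 164 in Mock. Vanillin and Sham overlap, and both are above Mock. It rose by 2.22 (SE 0.16, adjusted p = 2.4e-06) in Sham minus Mock, and Vanillin minus Sham was not called (0.06, SE 0.16, adjusted p = 0.805). The Gzmk probe was near background, with intensities under 7 on all arrays, and was not called in any of the 3 comparisons, though it was with a smaller pseudocount in those that use Sham.

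Prf1 encodes perforin, the pore through which granzymes enter target cells. Its intensities were 160.2, 149.6 and 149 in Vanillin, 70.6, 70.6 and 62.6 in Sham and 134, 144 and 134 in Mock. The Sham arrays are all below the others, and Vanillin is slightly above Mock. It fell by 0.87 (SE 0.059, adjusted p = 1.48e-06) in Sham minus Mock and rose by 1.01 (SE 0.059, adjusted p = 1.5e-06) in Vanillin minus Sham. Nkg7, a cytotoxic granule membrane protein, averaged 286 ± 15.7 in Vanillin, 168 ± 14.8 in Sham and 299 ± 16.6 in Mock (SD, n = 3 each). Its changes were -0.78 (SE 0.074, adjusted p = 1.45e-05) and 0.72 (SE 0.074, adjusted p = 6.34e-05) in the same comparisons. The squamous epithelium sums of 363072 to 415425 in Vanillin, 48170 to 50147 in Sham and 619234 to 627871 in Mock were likewise lowest on the Sham arrays, and the part of that tissue in the Prf1 and Nkg7 results was not tested.

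The 3 NK receptor genes had no called increase in Sham minus Mock. Klrd1, the CD94 chain of NK receptors, averaged 284 ± 9.62 in Vanillin, 202 ± 22.9 in Sham and 307 ± 9.14 in Mock. It fell by 0.57 (SE 0.074, adjusted p = 0.00013) in Sham minus Mock and rose by 0.46 (SE 0.074, adjusted p = 0.000889) in Vanillin minus Sham. Klrk1, which encodes the activating receptor NKG2D, stood at -0.28 (adjusted p = 0.119) and 0.12 (adjusted p = 0.518) in the same comparisons, and without Sham 3 the first was called lower (adjusted p = 0.0101). Ncr1, a receptor that defines NK cells, lay under an intensity of 50 on all arrays and stood at -0.18 (adjusted p = 0.105) and 0.19 (adjusted p = 0.104). Without Sham 2 it was called lower in Sham minus Mock (adjusted p = 0.0227) and higher in Vanillin minus Sham (adjusted p = 0.0257).

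Interferon gamma and the transcription factors gave 1 increase, 2 decreases and 2 uncalled genes in Sham minus Mock. Ifng, the main cytokine of type 1 responses, had 3025, 2248 and 2670.1 in Vanillin, 4171, 4287 and 4210.0 in Sham and 2415, 2497 and 2430.4 in Mock. The Sham arrays are above all others, and the spread-out Vanillin arrays overlap Mock. It rose by 0.78 (SE 0.093, adjusted p = 7.31e-05) in Sham minus Mock and fell by 0.68 (SE 0.093, adjusted p = 0.000358) in Vanillin minus Sham. Tbx21, which encodes T-bet, a factor that drives Ifng in T and NK cells, was under 50 on all arrays and stood at 0.02 (adjusted p = 0.841) and -0.08 (adjusted p = 0.458). Its relative Eomes, a factor of NK and memory T cells, averaged 2767 ± 103 in Vanillin, 2516 ± 96.9 in Sham and 4176 ± 215 in Mock. It fell by 0.73 (SE 0.057, adjusted p = 4.13e-06) in Sham minus Mock and was not called in Vanillin minus Sham (0.14, adjusted p = 0.0788). The regulatory T cell factor Foxp3 had 534, 586 and 539 in Vanillin, 550.2, 636 and 620.5 in Sham and 588, 551 and 577 in Mock. The groups overlap, and neither Sham minus Mock (0.07, adjusted p = 0.398) nor Vanillin minus Sham (-0.12, adjusted p = 0.183) was called, though Vanillin minus Sham was called lower without Sham 1 (adjusted p = 0.0462).

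Gata3, a factor of T helper 2 cells and type 2 innate lymphoid cells that skin epithelium also uses, had the widest change of the 40 genes with vanillin. Its probe read 4465, 4362 and 4126 in Vanillin, 503, 504 and 509.9 in Sham and 5207, 5589.7 and 5323 in Mock. The Sham arrays are far below both other groups, which do not overlap each other, so that the Vanillin mean is 8.53 times the Sham mean. It fell by 3.37 (SE 0.05, adjusted p = 3.97e-11) in Sham minus Mock and rose by 3.05 (SE 0.05, adjusted p = 1.61e-10) in Vanillin minus Sham. Squamous epithelium markers were low on the same arrays. All 15 fell in Sham minus Mock, with a median change of -5.84, and 14 of 15 rose in Vanillin minus Sham, with a median of 4.81. Of these 15, 3 were under an intensity of 50 on all Sham arrays, and their part in the Gata3 result was not tested.

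Of 3 cytokine receptor genes, 2 rose in Sham minus Mock, and the 3 stood between -0.31 and 0.05 in Vanillin minus Sham, not called. Il7r, the receptor of the survival cytokine interleukin 7, averaged 956 ± 4.77 in Vanillin, 952 ± 20.7 in Sham and 656 ± 30.9 in Mock. It rose by 0.53 (SE 0.049, adjusted p = 1.22e-05) in Sham minus Mock and stood at 0.01 (SE 0.049, adjusted p = 0.928) in Vanillin minus Sham. Il2ra, the high-affinity chain of the interleukin 2 receptor, rose by 0.27 (adjusted p = 0.0363) in Sham minus Mock, a call lost without Mock 1, 2 or 3 or Sham 2 or 3 (adjusted p of 0.0721 to 0.116). Il2rb, the chain shared by the interleukin 2 and interleukin 15 receptors, had the largest standard error of the 40 genes. Vanillin 1 read 144 while Vanillin 2 and 3 read 291 and 295. Sham minus Mock was 0.37 (SE 0.25, adjusted p = 0.228) with all arrays, and the same change was called without Vanillin 1 (adjusted p = 0.041), which enters through the shared spread.

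Both chemokine receptor genes rose in Sham minus Mock and fell in Vanillin minus Sham. Ccr7, which guides lymphocytes and dendritic cells into lymphoid tissue, averaged 233 ± 12.8 in Vanillin, 293 ± 15.6 in Sham and 143 ± 3.83 in Mock. Its changes were 0.96 (SE 0.058, adjusted p = 6.59e-07) in Sham minus Mock and -0.31 (SE 0.058, adjusted p = 0.00196) in Vanillin minus Sham. Ccr6, the receptor of CCL20 on B cells and some helper T cells, changed by 0.68 (adjusted p = 1.2e-05) and -0.26 (adjusted p = 0.0079). B and plasma cell markers, 14 of 15 measured, summed to 40487 to 42747 in Vanillin, 59176 to 60018 in Sham and 15518 to 16009 in Mock, the same order as both genes, and their part in these results was not tested.

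Set against untreated colon, vanillin-treated AOM/DSS colon still had more of many lymphocyte genes. In Vanillin minus Mock, 18 of the 40 genes rose and 4 fell, where 24.5% of all probes rose and 26.2% fell. The median was 0.16, against -0.00 over all probes. Increases of at least 1 were those of Gzmb (3.37, adjusted p = 6.04e-09), Gzma (2.27, adjusted p = 3.54e-06), Cd69 (1.29, adjusted p = 9.29e-07) and Cd28 (1.13, adjusted p = 1.47e-06), 4 genes where 3.68% of all probes reached that size. Havcr2 at 0.95, Cd274 at 0.93, Icos at 0.80, Gzmc at 0.68 and Cd3d at 0.65 also rose. The other 9 increases were those of Cd3e at 0.64, Ccr7 at 0.64, Il7r at 0.53, Lat at 0.49, Pdcd1 at 0.48, Ccr6 at 0.42, Cd8b1 at 0.39, Tigit at 0.31 and Il2ra at 0.31. The 4 decreases were those of Eomes (-0.59), Gata3 (-0.31), Cd5 (-0.27) and Cd247 (-0.26). Of the 40 genes, 18 were not called, among them Ifng at 0.10, Prf1 at 0.14, Cd3g at 0.08, Nkg7 at -0.06 and Klrd1 at -0.11.

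Some of these calls were lost when 1 of several arrays was left out. Cd5 was not called in Vanillin minus Mock without Mock 3, Vanillin 2 or Vanillin 3 (adjusted p of 0.0717 to 0.0783), and Il2ra was not called without Mock 2, Vanillin 2 or Vanillin 3 (adjusted p of 0.0564 to 0.0766). Cd8b1, at 0.39 (adjusted p = 0.0321), was not called without Mock 2, Mock 3, Vanillin 2 or Vanillin 3 (adjusted p of 0.0923 to 0.11), nor with the replicate number as a block (adjusted p = 0.0664). In the other direction, Ifng was called higher without Vanillin 2 (adjusted p = 0.0293), Cd4 without Mock 1 (adjusted p = 0.0104), and Lag3 without Mock 2 or Vanillin 2 (adjusted p of 0.0247 to 0.0498). With array weights, Cd4 (0.49), Cd27 (0.27), Prf1 (0.14) and Cd2 (0.12) were called higher and Klrd1 (-0.16) lower in Vanillin minus Mock, at an adjusted p of 0.00258 for Cd4, 0.0177 for Cd27, 0.0153 for Prf1, 0.0315 for Cd2 and 0.0265 for Klrd1.

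Other genes of the same pathways, none of them among the 40, were read from 4 lists. Their counts stand against the 36.5% of all probes that rose and the 23.2% that fell in Sham minus Mock, and the 15.7% and 32.2% in Vanillin minus Sham. Of 26 measured T cell receptor and T lineage genes, 15 rose and 6 fell in Sham minus Mock. In Vanillin minus Sham, 7 rose and 9 fell, a share of decreases near that of all probes. Their medians were 0.32 and -0.08, against 0.10 and -0.09 over all probes. The T cell transcription factor gene Lef1, which the intestinal epithelium can also use in Wnt signalling, averaged 170.4 in Vanillin, 254 in Sham and 37.9 in Mock, a rise of 2.32 (SE 0.066, adjusted p = 3.37e-09) in Sham minus Mock. Its relative Tcf7 rose by 1.67 (SE 0.06, adjusted p = 1.78e-08). Rasgrp1, which links the T cell receptor to Ras, fell by 1.95 (SE 0.056, adjusted p = 3.71e-09) in Sham minus Mock and rose by 1.48 (SE 0.056, adjusted p = 6.93e-08) in Vanillin minus Sham. These receptor and lineage genes, like those of the CD3 chains, had called changes of both signs.

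Of 18 measured cytotoxic and NK genes, 9 rose and 3 fell in Sham minus Mock. In Vanillin minus Sham, 2 rose and 6 fell, a share of decreases near the 32.2% of all probes. Slamf7, a surface receptor of NK cells and plasma cells, averaged 256 in Vanillin, 635 in Sham and 52.0 in Mock. It rose by 3.26 (SE 0.088, adjusted p = 2.32e-09) in Sham minus Mock and fell by 1.26 (SE 0.088, adjusted p = 5.15e-06) in Vanillin minus Sham. Ccl5, a chemokine of activated T and NK cells, changed by 1.89 (SE 0.079, adjusted p = 4.78e-08) and -1.20 (SE 0.079, adjusted p = 3.55e-06) in the same comparisons. Ctsw, a protease gene of killer cells, ran the other way, as Prf1 and Nkg7 did, at -0.92 (SE 0.055, adjusted p = 5.66e-07) and 0.74 (SE 0.055, adjusted p = 7.97e-06).

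Of 31 measured genes of innate lymphoid, helper and regulatory T cells, 11 rose and 9 fell in Sham minus Mock, a share of increases near the 36.5% of all probes, and 10 rose and 6 fell in Vanillin minus Sham. Rora, a factor needed for type 2 innate lymphoid cells and used by many other cells, averaged 4008 in Vanillin, 361 in Sham and 4816 in Mock. It fell by 3.68 (SE 0.074, adjusted p = 3.07e-10) in Sham minus Mock and rose by 3.42 (SE 0.074, adjusted p = 1.13e-09) in Vanillin minus Sham, sizes close to those of Gata3. Maf, a factor of several helper T cell types, changed by -1.06 (SE 0.056, adjusted p = 2.57e-07) and 1.60 (SE 0.056, adjusted p = 3.79e-08). Zbtb16 fell by 1.14 (SE 0.053, adjusted p = 1.07e-07) in Sham minus Mock but was not called in Vanillin minus Sham (-0.08, adjusted p = 0.246). Among the 11 increases, Stat4 rose by 0.55 (SE 0.057, adjusted p = 2.68e-05) and fell by 0.49 (SE 0.057, adjusted p = 0.000144) in Vanillin minus Sham. The summed squamous, fat and muscle markers were low on the same Sham arrays as Rora and Maf, and the part of those tissues in these results was not tested.

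Ligands of the receptors above gave 9 increases and 3 decreases among 16 measured genes in Sham minus Mock, and 1 increase and 6 decreases in Vanillin minus Sham. Of all probes, 15.7% rose and 32.2% fell in Vanillin minus Sham. Ccl20, the ligand of CCR6, averaged 986 in Vanillin, 1995 in Sham and 561 in Mock. It rose by 1.80 (SE 0.051, adjusted p = 3.26e-09) in Sham minus Mock and fell by 1.01 (SE 0.051, adjusted p = 5.73e-07) in Vanillin minus Sham. Lgals9, which encodes galectin 9, a ligand of TIM-3, rose by 1.91 (SE 0.061, adjusted p = 7.62e-09) in Sham minus Mock. H60c, a ligand of NKG2D made by skin epithelium in mice, fell by 2.94 (SE 0.066, adjusted p = 6.62e-10) in Sham minus Mock and rose by 2.18 (SE 0.066, adjusted p = 1.34e-08) in Vanillin minus Sham. The summed squamous markers were also lowest on the Sham arrays, and the part of that tissue in the H60c result was not tested.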

How the data were processed

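The deposited values are probe intensities on a linear scale, normalised by the authors. Per the labels' protocols, amplified RNA carried the dye Cy5. The submitters' processing notes name limma. What limma did and in which version, like the scanner and the background method, is not given in the sources used here. Between 3 and 14 probes per array were below 0, which shows background subtraction. Median intensities of 319.6 to 320.1 and near-equal quartiles left nothing to rescale. The number of arrays limits precision. Probes were named through the platform annotation (20377 with 1 symbol, 6046 with none).

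Negative values were set to 0, and log2(intensity + 16) was fitted with 3 group means on all 9 arrays in limma 3.58.1 under R 4.3.3 (lmFit and eBayes, two-sided, Benjamini-Hochberg over 26423 probes, 6 residual degrees of freedom). The fit was also run on simulated data in which far fewer probes were shifted than were called here, so that run does not measure false calls in these data. Within-group array correlations were 0.9952 to 0.9976, against 0.9259 to 0.9285 between Sham and Mock arrays. Every member gene is accounted for, with values on every array where a called change reached 1 in any comparison and for Cd3e, Cd4, Cd8a, Foxp3 and Ifng, to which Cd3d and Cd3g were added after their values were seen. Up to 4 genes per related list and comparison were eligible, by the smallest p. The members, lists, motifs and tests were chosen with earlier results of these data known. Groups came from the sample labels. Other amounts of vanillin were not analysed here.

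Arrays carry replicate numbers 1 to 3 in each group. Deviations from group means of same-numbered Vanillin and Sham arrays correlated at 0.169, 0.126 and 0.201 across probes, so this pair counts as paired by the rule used (all above 0.1). For Sham with Mock they were -0.104, -0.016 and -0.117, and for Vanillin with Mock -0.288, -0.103 and -0.151, so those numbers were not taken as pairs. Alternatives tried were pseudocounts of 1 and 64, leaving out the dimmest 30% of probes, quantile normalisation or median centring on top, an intensity trend with a robust fit, array weights, the mean over a gene's probes, a minimum change of 0.5, the 6 compared arrays alone, a replicate block and leaving out each array. Promoter sequences are from RefSeq (GRCm38.p6), with an entry for 29 of the 40 genes.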

Additional observations from a re-analysis of the deposited data

How the results depend on the processing

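With a minimum log2 change of 0.5 added to the call, fewer genes passed by construction. Sham minus Mock then had 8498 probes called in all, with 15 of the 40 genes higher and 7 lower. Vanillin minus Sham had 4245 probes, 5 genes higher and 4 lower, and Vanillin minus Mock had 5897 probes, 12 genes higher and 1 lower. Without the minimum, 15787, 12659 and 13404 probes were called in the same order of comparisons. Leaving out 1 array gave 22 to 24 of the 40 genes higher and 8 to 10 lower in Sham minus Mock, 9 to 10 higher and 10 to 14 lower in Vanillin minus Sham, and 16 to 19 higher and 3 to 4 lower in Vanillin minus Mock. The other settings gave 21 to 24 and 9 to 10, 9 to 11 and 11 to 15, and 17 to 22 and 4 to 5. No gene's called change turned its sign. Of single-gene results, 1030 of 1080 with an array left out and 1199 of 1225 under other settings were unchanged, which includes genes called in neither fit. Of the rest, 38 and 10 lost a call, and 12 and 16 gained one. Quantile normalisation and median centring, counted among the other settings, could change little on arrays with near-equal quartiles. With a replicate block, Sham minus Mock had 23 higher and 9 lower, Vanillin minus Sham had 10 and 12, Vanillin minus Mock had 17 and 4, and the calls of Cd69 in Vanillin minus Sham and Cd8b1 in Vanillin minus Mock were the ones lost. In a block fit on the 6 Vanillin and Sham arrays, an alternative chosen after seeing the data, Cd8b1 was called lower (adjusted p = 0.0233) and Cd69 was not called (adjusted p = 0.0545). The block changed no other call of the 40 genes. With a pseudocount of 1, the near-background Gzmk probe was called higher in Vanillin minus Sham (0.31, adjusted p = 0.00464) and lower in Sham minus Mock (-0.23, adjusted p = 0.0148). Separately, taking the mean over a gene's probes called Cd8a higher in Vanillin minus Mock (0.34, adjusted p = 0.000266). Besides the calls named above, array weights called Eomes (adjusted p = 0.0488) and Ncr1 (0.0325) higher and Cd2 lower (0.0133) in Vanillin minus Sham, and Il2rb higher in Sham minus Mock (0.0475), while Cd274 lost its call in Vanillin minus Sham (0.0682). The causes of these changes were not tested. Signal over background limits Gzmk, Ncr1 and Tbx21 most, each under an intensity of 50 on all arrays.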
